A study of Mus musculus with 18 samples.

Results

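The subject is 5 miRNA hairpin loci, Mir218-1, Mir1247, Mir7224, Mir671 and Mir423, out of 2009 loci listed in the counts of a mouse small RNA study. They were chosen by the cell values: their counts were higher in adipose-derived stromal cells (ASC) primed with interferon gamma than in naive ASC. The vesicle libraries can be asked whether the extracellular vesicles (EVs) that such cells release hold more of the same loci after priming. Because the cell values chose the loci, the rise in the cells is given here as a description with no test. The rule for choosing them uses no EV value, but results for the EVs were known when they were chosen, and Mir147 and Mir140, which passed in both cells and EVs, are not among them. All 5 loci passed the filter on low counts, which left 245 loci for testing.

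The samples were ASC, a stromal cell type grown from fat, from adult mice of the NGL strain, and EVs shed by such cells. Primed cells received interferon gamma for 24 h, at a dose not given in the sources used here. Primed and naive cells alike were then kept for 48 h in alpha MEM with 2% serum freed of EVs. The 18 libraries were 4 of naive ASC (numbered 1, 3, 4 and 5), 4 of primed ASC (2 to 5), 5 of naive EVs (1 to 5) and 5 of primed EVs (1 to 5). Naive EV 1 and naive ASC 1 carry titles that join the numbers 1 and 2, and the labels do not say what was joined, while primed EV 1 and primed EV 5 both carry the number 5 in their titles. ASC RNA came from TRIzol and RNeasy columns and EV RNA from a SeraMir column kit, so vesicle against cell cannot be told apart from kit against kit. Separate animals or cultures behind the replicates are not named in the labels. The p-values therefore speak only of the spread among these samples, which may be technical.

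Interferon gamma is the cytokine by which T and natural killer cells alert other cells, and it acts through a receptor on the cell surface that changes which genes are transcribed. miRNAs are short RNAs cut from hairpin precursors by Drosha and Dicer, and each hairpin can give a mature strand from its 5p and its 3p arm. Bases 2 to 8 of the mature strand, the seed, pair with target mRNAs. Cells load some miRNAs into EVs more than others, and stromal cell EVs are studied as carriers of miRNAs that dampen inflammation.

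The mature strands of the 5 loci are shown with the seed in capitals, 5′ to 3′, because the counts are per hairpin and do not say which arm was read. They come from RefSeq on GRCm38.p6, where all 5 loci were matched by symbol. RefSeq lists 1 arm for Mir7224.
miR-218-5p: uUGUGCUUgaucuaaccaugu
miR-218-1-3p: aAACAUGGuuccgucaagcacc
miR-1247-5p: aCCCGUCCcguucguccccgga
miR-1247-3p: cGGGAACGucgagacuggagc
miR-7224-5p: gGGUAGGCcccucagugaaga
miR-671-5p: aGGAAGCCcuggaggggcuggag
miR-671-3p: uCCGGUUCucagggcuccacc
miR-423-5p: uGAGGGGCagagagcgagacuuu
miR-423-3p: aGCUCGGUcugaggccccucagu
No seed occurs at more than 1 of the 5 loci. miR-218-5p is also made, letter for letter, from Mir218-2, whose own 3p strand differs from that of Mir218-1.
miR-218-2-3p: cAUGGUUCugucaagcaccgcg
Aligned from base 4 of miR-218-1-3p, this strand has 18 identical bases in an overlap of 19, and its seed is a different one. Of other loci that share a seed with a member, Mir6921 (with miR-423-5p) had 5 counts in 2 libraries, and Mir7002 and Mir496b had 0.

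The genome places of the 5 loci are given on GRCm38, because host transcripts bear on what is counted. Mir218-1 lies on the plus strand of chromosome 5 from 48223942 to 48224051, in an intron of Slit2, a gene for an axon guidance protein. Mir423 lies on the minus strand of chromosome 11 from 77078064 to 77078172 in an intron of Nsrp1, a splicing regulator gene, and Mir7224 on the plus strand of chromosome 2 from 67675457 to 67675516 in an intron of B3galt1, a glycosyltransferase gene. Mir671 lies on the plus strand of chromosome 5 from 24592114 to 24592211 within coding sequence of Chpf2, an enzyme gene of chondroitin synthesis, and on the other strand within an exon of Smarcd3. Mir1247 lies on the minus strand of chromosome 12 from 110278048 to 110278129 in an exon of Dio3os, a noncoding RNA of the imprinted Dlk1-Dio3 region, 939 bp from Dio3. The authors counted without regard to strand, so fragments of Chpf2, Smarcd3 or Dio3os RNA at these places are not told apart from the miRNAs. No other miRNA gene lies within 10 kb of a member.

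Library totals ran from 180812 (primed ASC 4) to 3052942 counts (primed EV 2). Mesenchymal miRNAs fixed as markers held 63.0% to 67.6% of EV counts and 23.7% to 44.6% of ASC counts, and none of the 11 was at 0 in any group. Blood cell miRNAs held 0.683% and 0.416% of counts in naive and primed EVs on average, against 0.0168% and 0.0311% in naive and primed ASC. Naive ASC 5 stood apart within its group, with a mesenchymal share of 23.7% against 40.5% to 44.6%, and with the highest scaling factor of all libraries (1.56).

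Levels are given as CPM, the counts of a library scaled to a common total with TMM factors, and changes as log2 fold changes between group means from the fit. In the cells the 5 loci were 2.05-fold to 4.11-fold higher after priming. Mir7224 stood at a log2 fold change of 2.04 (SE 0.43, n = 4 and 4), Mir218-1 at 1.88 (SE 0.39), Mir1247 at 1.75 (SE 0.47), Mir671 at 1.07 (SE 0.27) and Mir423 at 1.04 (SE 0.30). These values describe the choice and are not tested. Of all 245 loci 5.31% (13) passed as higher in primed ASC by the quasi-likelihood test of edgeR at a Benjamini-Hochberg adjusted p under 0.05. That count includes the 5 members, which were chosen by these same values, so it is no support for their rise. The members hold ranks 3, 5, 6, 14 and 16 by size, and the choice states no threshold. Next to them in rank, Mir5126 (2.10, SE 0.73) at rank 2 and Mir7035 (1.92, SE 0.86) at rank 4 did not pass, while Gm25301 (1.05, SE 0.32) at rank 15 and Mir140 (1.01, SE 0.19) at rank 17 passed and are not members. Mir147 (2.71), Mir6236 (1.54), Mir125b-2 (0.98), Mir34b (0.86), Mir125a (0.82) and Mir125b-1 (0.68) also passed and are not members. The count of 13 fell to 5 without naive ASC 3, to 5 without naive ASC 4, and was 28 with DESeq2. At 3 of the 5 loci the ASC groups did not overlap, where 6.53% of all loci were higher without overlap. The choice of loci by these values favours such a gap, so the 2 figures are not a comparison. In bulk samples, more cells that make an miRNA and more of it per cell cannot be told apart.

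**Figure D1:**
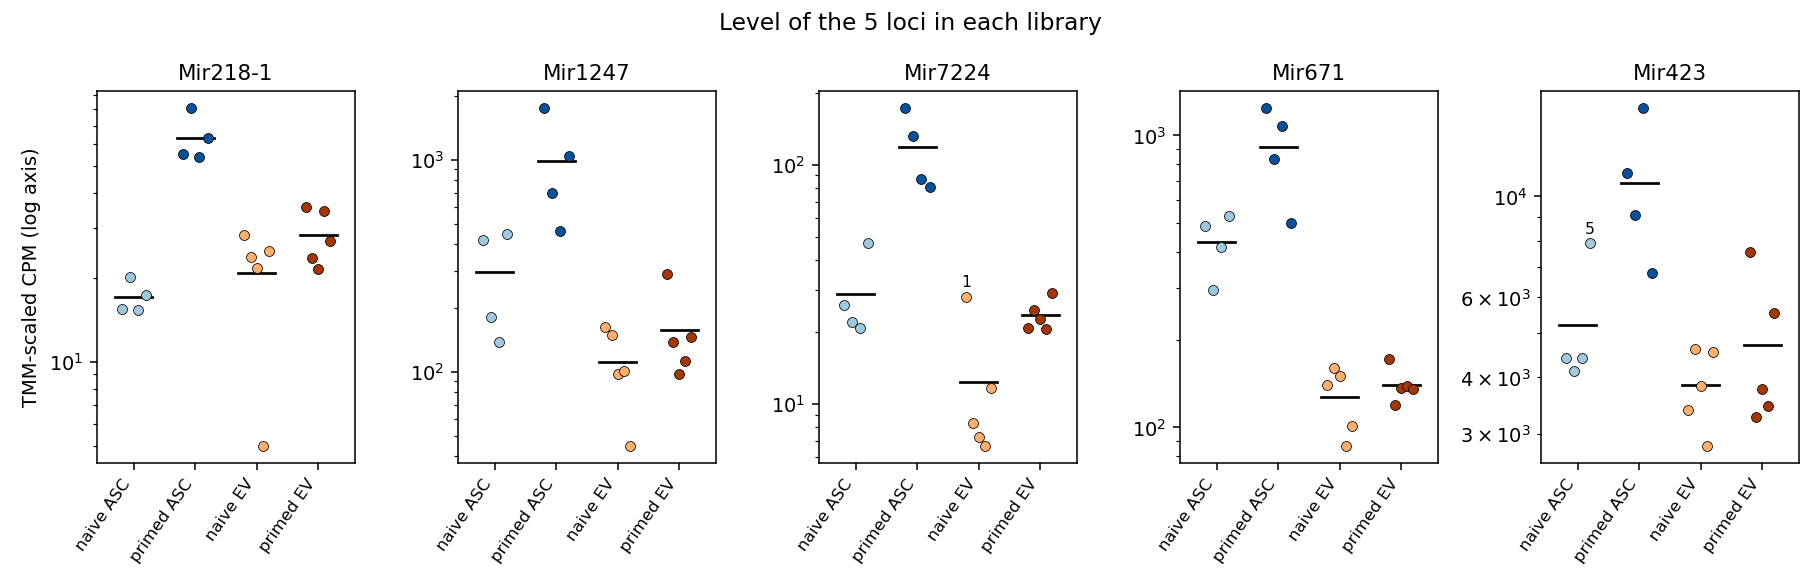
Level of each of the 5 loci in CPM, on a log axis with its own range per panel, in the 4 ASC and 5 EV libraries of each condition. Points are libraries in replicate order, lines are group means, and the numbers 5 and 1 mark naive ASC 5 at Mir423 and naive EV 1 at Mir7224. Primed ASC stand highest in every panel by the mean, while naive and primed EVs overlap in all 5.

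Mir218-1 carries the 218 hairpin of the Slit2 gene, and miR-218 is known for its abundance in motor neurons and for a role in bone-forming cells. Its level was 15.4, 20.1, 15.4 and 17.3 CPM in naive ASC 1, 3, 4 and 5, and 55.4, 80.7, 54.0 and 63.4 CPM in primed ASC 2 to 5. The ASC groups did not overlap. In naive EVs 1 to 5 it stood at 28.4, 23.8, 21.6, 4.98 and 24.8 CPM, and in primed EVs 1 to 5 at 35.7, 23.5, 21.5, 34.7 and 27.0 CPM. The EV groups overlapped, and the low naive EV 4 rests on 3 counts. By group means the order was naive ASC, naive EV, primed EV and primed ASC. Only naive ASC and naive EV lay closer than the spread within groups (0.10 apart on the log2 scale, pooled SD 0.48). The step from naive to primed EVs (0.55) leaned on naive EV 4. Without that library the EV log2 fold change from the fit was 0.21, against 0.42 with it.

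Mir1247 comes from the imprinted region around Dio3, the gene of an enzyme that inactivates thyroid hormone. It stood at 420.3, 181, 138 and 445 CPM in naive ASC 1, 3, 4 and 5, and at 1748, 699, 461 and 1045 CPM in primed ASC 2 to 5. These groups did not overlap, but the lowest primed library (461) was close to the highest naive one (445). In EVs it stood at 162, 149.7, 97.4, 101 and 44.6 CPM in naive 1 to 5, and at 289, 139, 97.3, 113 and 146 CPM in primed 1 to 5. Primed EV 1 was the highest, and the other primed EV libraries lay within the range of the naive ones. The order of means was naive EV, primed EV, naive ASC and primed ASC, with the EV groups closer than the spread (0.50 apart, pooled SD 0.75).

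Mir7224 stood at 25.7, 22.0, 20.8 and 46.9 CPM in naive ASC 1, 3, 4 and 5, and at 172, 132, 87.2 and 80.8 CPM in primed ASC 2 to 5. The ASC groups did not overlap. In naive EVs 1 to 5 it stood at 27.9, 8.32, 7.22, 6.64 and 11.6 CPM, and in primed EVs 1 to 5 at 20.7, 24.6, 22.6, 20.6 and 29.1 CPM. Every primed EV library was above 4 of the 5 naive ones, and naive EV 1 alone made the groups overlap. Primed EVs and naive ASC were closer than the spread (0.21 apart on the log2 scale, pooled SD 0.52). Counts were low, at 4 to 8 in naive EVs 2 to 5.

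Mir671 gives miR-671-5p, known for guiding the cleavage of the circular RNA Cdr1as. It stood at 489, 295, 416 and 531 CPM in naive ASC 1, 3, 4 and 5, and at 1238, 828, 1075 and 503 CPM in primed ASC 2 to 5. Of the primed libraries, number 5 lay within the naive range. The EV libraries were tightly grouped, at 139.7, 160.4, 149.7, 86.4 and 101 CPM in naive 1 to 5 and at 171, 119.7, 137, 139 and 135 CPM in primed 1 to 5. Every EV library was below every ASC library, and the EV groups differed by less than the spread (0.17 apart on the log2 scale, pooled SD 0.40).

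Mir423, a locus whose strands are found in many tissues and in blood plasma, was the most deeply counted of the 5, with 1702 to 12382 counts per library. It stood at 4416, 4135, 4409.8 and 7889 CPM in naive ASC 1, 3, 4 and 5, and at 11253, 9099, 15616 and 6800.4 CPM in primed ASC 2 to 5. Naive ASC 5 exceeded primed ASC 5, and the other primed libraries lay above every naive one. In EVs it stood at 3392, 4631, 3835, 2827 and 4539 CPM in naive 1 to 5, and at 7532, 3268, 3769, 3458 and 5545 CPM in primed 1 to 5. The EV groups overlapped, and neither the step from naive to primed EVs (0.24) nor that from primed EVs to naive ASC (0.17) exceeded the spread (pooled SD 0.45).

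Naive ASC 5 was the highest naive ASC library for Mir1247, Mir7224, Mir671 and Mir423. Without it the cell differences were 2.42 for Mir7224, 2.04 for Mir1247, 1.94 for Mir218-1, 1.39 for Mir423 and 1.26 for Mir671. Loci that resemble abundant RNA also moved in the cells, with a mean of 0.285% of counts (0.204% to 0.332%) in naive and 0.487% (0.235% to 0.699%) in primed ASC. Of the 11 such loci fixed for this check, 7 were in the files and 1 of those was at 0 in each ASC group. The part of these loci in the result was not tested.

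The comparison of primed with naive EVs shares no library with the one that chose the loci, but EV results were known at the choice. Mir147 and Mir140, the only loci that passed in EVs, also passed in cells and were not chosen. It is therefore not an independent result that none of the 5 loci passed. Their log2 fold changes were all above 0, at 0.84 for Mir7224 (SE 0.40), 0.47 for Mir1247 (SE 0.42), 0.42 for Mir218-1 (SE 0.34), 0.29 for Mir423 (SE 0.26) and 0.13 for Mir671 (SE 0.24), with 5 libraries a group. The Benjamini-Hochberg adjusted p of edgeR's quasi-likelihood test over all 245 loci was 0.465 for Mir7224, 0.689 for Mir1247, Mir218-1 and Mir423, and 0.880 for Mir671. Few loci passed at all, namely 2 of 245 (0.816%), Mir147 and Mir140, and 25 had an unadjusted p under 0.05. The number that passed after adjustment was 8 without primed EV 2, 4 without naive EV 1 and 5 with DESeq2. It was 1 without naive ASC 1, naive ASC 3 or any 1 of the 4 primed ASC libraries. The EV groups overlapped at all 5 members, where 2.45% of all loci did not overlap. For 51.8% of all loci the value was above 0. The median was 0.42 over the 5 members and 0.02 over all loci.

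**Figure D2:**
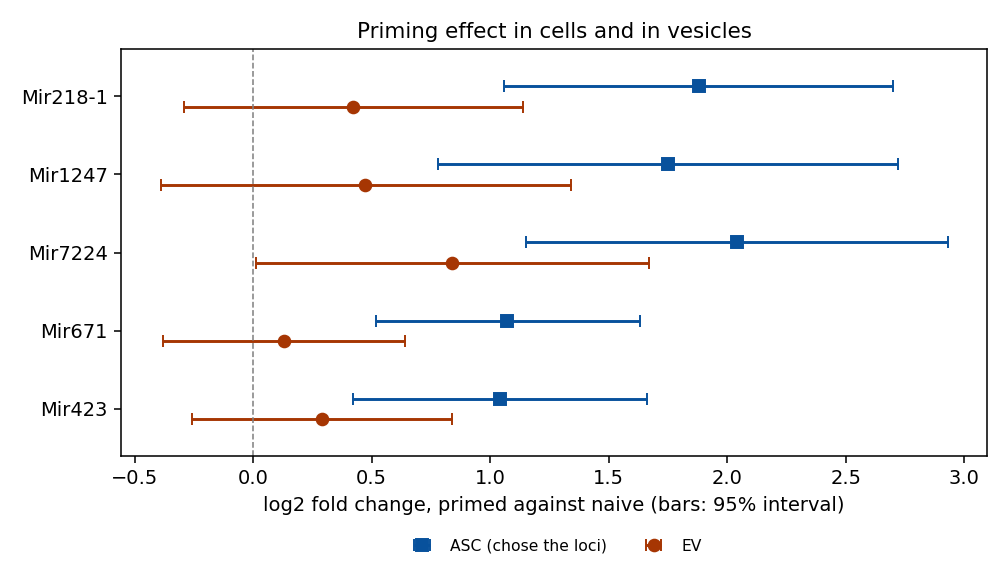
Log2 fold change of primed against naive libraries for the 5 loci, with squares for ASC (4 against 4 libraries), circles for EVs (5 against 5) and bars for 95% intervals from the edgeR fit. Each EV value lies below the ASC value of the same locus, but the EV and ASC intervals overlap at every locus. Only the EV interval of Mir7224, from 0.01 to 1.67, lies above 0 before adjustment. The ASC values chose the loci.

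How far the EV data limit a rise can be read from the 95% intervals of the log2 fold change. They ran from -0.29 to 1.14 for Mir218-1, from -0.39 to 1.34 for Mir1247, from 0.01 to 1.67 for Mir7224, from -0.38 to 0.64 for Mir671 and from -0.26 to 0.84 for Mir423. The upper bound lay below the cell value in all 5, by little for Mir423 (0.84 against 1.04) and by more for Mir218-1 (1.14 against 1.88). Without naive EV 1 this did not hold for Mir7224, whose interval then ran from 0.74 to 2.39, against 2.04 in cells. Without primed EV 4 the upper bound of Mir423 was 1.04, level with its cell value of 1.04. The cell values have intervals too, with lower bounds of 1.06 for Mir218-1, 0.78 for Mir1247, 1.15 for Mir7224, 0.52 for Mir671 and 0.42 for Mir423. Each lies below the EV upper bound, so the cell and EV intervals overlapped at every locus. The cell values also come from loci chosen for being high there. For that reason the difference between the cell and the vesicle effect was not tested. Missing the threshold does not show that these loci were unchanged in EVs.

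Mir7224 depended on 1 library. Without naive EV 1 its log2 fold change in EVs was 1.57, and it passed, with an adjusted p of 0.0481 in the same edgeR test. Without any other single library it ran from 0.70 to 0.95 and did not pass. The exact two-sided permutation test over all 252 splits of the 10 EV libraries gave p = 0.0397 with all libraries, and 0.417 after Benjamini-Hochberg adjustment over 245 loci. Naive EV 1, like naive ASC 1, has a title that joins 2 numbers, and its total of 2245823 counts was the highest of the naive EVs. The part of either in the Mir7224 value was not tested. For the other 4 members the permutation test gave unadjusted exact p-values from 0.19 to 0.429.

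The small EV differences of Mir423 and Mir671 depend on the scaling. Scaling by library totals alone moved the median over all loci from 0.02 to -0.25, and Mir423 turned to -0.04 and Mir671 to -0.18. Mir671 also turned to -0.03 with TMMwsp factors and to -0.02 with a stricter filter. Mir218-1, Mir1247 and Mir7224 stayed above 0 in every setting and every fit without 1 library.

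**Figure D3:**
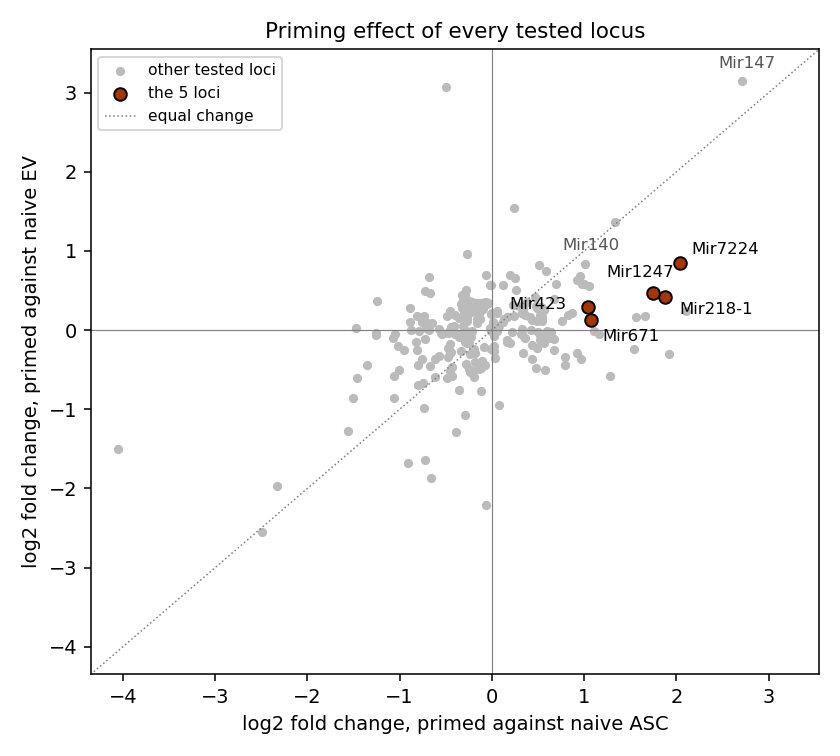
Log2 fold change of primed against naive EVs (vertical) against that of primed against naive ASC (horizontal) for the 245 tested loci, with the 5 loci in red. The dotted line marks equal change, and the 5 loci lie to the right of it, while Mir147 lies above it at 3.15 in EVs and 2.71 in ASC.

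Across all 245 loci, which are not independent replicates, the cell and the vesicle effect were correlated at r = 0.45 (Pearson) and rho = 0.34 (Spearman), given as a description. The ASC and EV comparisons share no library. Of the 8 other loci that passed as higher in primed ASC, 7 had an EV value above 0, with a median of 0.48, beside a median of 0.42 for the 5 members. The cell medians of the same sets were 1.00 and 1.75. Mir147, known from macrophages stimulated through Toll-like receptors, had 2.71 in cells and 3.15 in EVs, and Mir140, a cartilage miRNA, had 1.01 and 0.84. Mir6236, which resembles abundant RNA, had 1.54 in cells and -0.24 in EVs.

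The next comparison asked whether the 5 loci are held more in vesicles or in cells. It set the average of both EV groups against the average of both ASC groups, and is given for the members as a description with no test, since the primed ASC values that chose the loci enter it. Mir671 was 4.69-fold lower in EVs (log2 fold change -2.23, SE 0.18, 10 EV and 8 ASC libraries), Mir1247 4.09-fold lower (-2.03, SE 0.31), Mir7224 3.32-fold lower (-1.73, SE 0.29) and Mir423 1.75-fold lower (-0.81, SE 0.20). The 95% intervals ran from -2.61 to -1.85, from -2.68 to -1.39, from -2.33 to -1.13 and from -1.22 to -0.40 in the same order. Mir218-1 stood at -0.43 (SE 0.26), with an interval from -0.97 to 0.11. Of all 245 loci 38% (93) passed as lower in EVs by the edgeR test, and 76.3% passed in either direction. The median was -1.73 over the members and -0.12 over all loci.

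**Figure D4:**
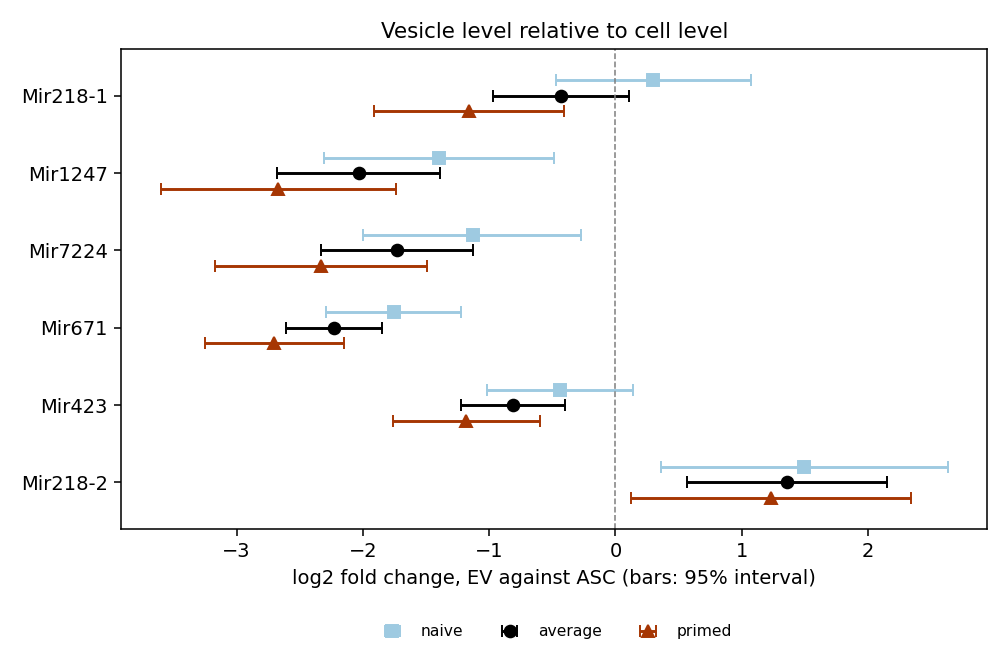
Log2 fold change of EVs against ASC for the 5 loci and for Mir218-2, in naive samples (squares), in primed samples (triangles) and averaged over both (circles), with 95% intervals as bars. Mir671, Mir1247 and Mir7224 lie left of 0 throughout, the averaged interval of Mir218-1 spans 0, and Mir218-2 lies to the right at an average of 1.36.

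Split by condition, and given without a test since the choice of loci moves both values, the EV to ASC difference went from -1.75 in naive to -2.70 in primed samples for Mir671. It went from -1.40 to -2.67 for Mir1247, from -1.13 to -2.33 for Mir7224, from -0.44 to -1.18 for Mir423 and from 0.30 to -1.16 for Mir218-1. Single libraries moved the naive values: without naive ASC 5 that of Mir423 was -0.04 and that of Mir7224 -0.64, and without naive EV 1 that of Mir7224 was -1.80. In primed samples the EV and ASC libraries did not overlap at any of the members but Mir423, that is at 4 of 5, where 25.7% of all loci were lower in EVs without overlap. In naive samples they did not overlap at Mir671 alone, where 28.2% of all loci were lower without overlap. Over all 18 libraries only Mir671 had EV and ASC levels that did not overlap (86.4 to 171 CPM in EVs and 295 to 1238 in ASC). That is 1 of 5, where 15.5% of all loci were lower in EVs without overlap.

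Several values move with the EV to ASC difference, and their part in it was not tested. The RNA kits differed. Beside the blood cell miRNAs above, the endothelial Mir126a held 0.559% and 0.350% of counts in naive and primed EVs, against 0.0160% and 0.0286% in naive and primed ASC. Hairpin GC content, known for 209 of the 245 loci (85.3%), went with this difference across loci at r = -0.28 (Pearson) and rho = -0.34 (Spearman), given as a description. For priming the same values were 0.22 and 0.26 in ASC, and -0.06 and -0.04 in EVs. Mir1247 has 74.4% GC, higher than 98.1% of those loci, Mir671 61.2%, Mir7224 55%, Mir423 51.4% and Mir218-1 45.5%, beside a median of 50%. Scaling by library totals alone moved the median over all loci from -0.12 to -0.69, and Mir218-1 then stood at -1.01. With every library thinned once to the smallest total, Mir7224 stood at -0.83.

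Mir218-2, the paralog on chromosome 11 from 35616816 to 35616925 in an intron of Slit3, went the other way. It stood at 8.58, 8.24, 9.03 and 8.64 CPM in naive ASC 1, 3, 4 and 5, and at 3.63, 18.8, 8.30 and 34.8 CPM in primed ASC 2 to 5. In naive EVs 1 to 5 it stood at 31.4, 29.7, 7.22, 31.6 and 23.1 CPM, and in primed EVs 1 to 5 at 43.2, 20.9, 45.3, 54.1 and 35.3 CPM. Naive EV 3 lay below the naive ASC libraries and primed ASC 5 lay among the EVs, so the groups overlapped. EVs were above cells on average, by a log2 fold change of 1.36 (SE 0.38, adjusted p = 0.00301 in edgeR's quasi-likelihood test), a call lost with library totals alone (0.79, adjusted p = 0.0577). It did not pass with priming, at 0.69 in EVs (SE 0.47, adjusted p = 0.636) and 0.95 in cells (SE 0.59, adjusted p = 0.368), both from the same edgeR test.

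Both 218 loci make the miR-218-5p strand printed above, so a read of it matches both places. The counting command names no option to count reads with several alignments. How much of the 5p strand is in these counts is not known. ASC libraries held 2 to 28 counts of Mir218-2 and 9 to 61 of Mir218-1.

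As a share of all counts, the 5 loci together held 0.797% ± 0.397 (SD, n = 4) in naive ASC, 1.60% ± 0.573 (n = 4) in primed ASC, 0.387% ± 0.113 (n = 5) in naive EVs and 0.379% ± 0.132 (n = 5) in primed EVs. Mir423 made up most of this. Without it the shares were 0.102%, 0.257%, 0.0253% and 0.0262% in the same order. The share without scaling factors was thus nearly the same in naive and primed EVs, with ranges of 0.259% to 0.538% and 0.255% to 0.575%.

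Loci whose log2 CPM over the 18 libraries was most like that of a member are named as a description, over points that share the split into EV and ASC. For Mir671 these were Mir328 (Pearson r 0.98) and Mir125a (0.97). Mir140 and Mir125b-2 were nearest both to Mir7224 (0.91 and 0.88) and to Mir1247 (0.87 each). For Mir423 they were Mir320 (0.81) and Mir151 (0.80), and for Mir218-1 they were Mir34b (0.74, but a Spearman rho of 0.35) and Mirlet7a-1 (0.72).

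Letters linked to miRNA sorting were looked up in the mature strands printed above. GGAG, reported in the binding of the vesicle sorting protein hnRNPA2B1, is in miR-671-5p and miR-1247-3p, that is in 2 of 9 member strands and in 9.34% of the strands of tested loci. CCCU, reported beside it, is in 3 of 9 (miR-671-5p, miR-423-3p and miR-7224-5p) and in 10.9%. These matches are descriptions, and miR-671-5p holds both. Counts per hairpin do not say which strand was read, and any part of these letters in EV levels was not tested.

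For the wider pathway, 21 miRNAs linked to inflammation or interferon were listed, of which 15 were tested. In EVs 1 of the 15 passed as higher with priming and 0 as lower (edgeR's quasi-likelihood test), where 0.816% of all loci passed as higher. The median was 0.22 beside 0.02 over all loci, and 14 of the 15 were above 0, where 51.8% of all loci were. These signs depend on the scaling. With library totals alone the EV median over all loci was -0.25, and Mir146 turned to -0.13. Mir147, Mir155 and Mir29b-1 stayed above 0 there, and the signs of the rest of the list were not followed. In cells 4 passed as higher and 0 as lower, with a median of 0.33 beside -0.12. These were Mir147 (2.71), Mir125b-2 (0.98), Mir125a (0.82) and Mir125b-1 (0.68), so all but Mir147 are miR-125 loci. Of all loci 10.2% passed in cells, 5.31% as higher and 4.9% as lower. The one that passed in EVs was Mir147 (3.15, SE 0.49). Mir155, the miRNA of activated immune cells, stood at 0.66 in EVs (SE 0.26) and 0.25 in cells, and Mir146, which restrains signalling from Toll-like receptors, at 0.14 in EVs (SE 0.46) and 0.53 in cells. Mir31 had the lowest value of the list in EVs (-0.98, SE 0.29) and -0.73 in cells, and Mir29b-1 stood at 0.67 in EVs and -0.68 in cells. Mir155, Mir146, Mir31 and Mir29b-1 did not pass in either comparison, although Mir31 passed in EVs under 4 of 11 other settings.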

How the data were processed

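Small RNA of the 18 libraries was counted by the authors per miRNA hairpin with featureCounts 1.5.3 and the Ensembl release 76 miRNA annotation, without regard to strand and with no option for reads of several alignments, per the file headers. The submitters' processing notes name STAR 2.0.4, bcl2fastq, Subread and GRCm38, and give featureCounts as 1.45. For trimming and for the alignment settings, the sources used here give nothing. The deposited values are raw counts with no molecular identifiers, so PCR copies are counted as reads.

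The files were joined on 2009 loci, of which 1899 matched GENCODE M21. Loci were kept by filterByExpr (245 loci with 99.9573% of counts), scaled by TMM, which gave factors of 0.68 to 1.08 in EVs and 1.15 to 1.56 in ASC, and fitted with 1 mean per group by edgeR 4.0.16 (glmQLFit and glmQLFTest, R 4.3.3), all 18 libraries together. Adjusted p-values are Benjamini-Hochberg over all kept loci, with a threshold of 0.05. Log2 CPM used a prior count of 2. Depth sets the precision: totals were 180812 to 3052942 counts. No 2 replicates agreed within sampling noise (chi-square per degree of freedom 21.6 or more).

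The alternatives were RLE, TMMwsp and no factors, no filter and a stricter one (10 counts in 9 libraries), DESeq2 1.42.0, limma-voom 3.58.1, replicate blocks, separate fits of EVs or ASC, thinning, an exact permutation test, and leaving out each library. Scripts were tested on simulated data. Named beside the members are the 2 loci most like each, seed relatives, neighbours in rank, loci that passed in EVs, and, from the inflammation list, Mir155, Mir146, Mir147 and the 2 highest and 2 lowest in EVs. Loci singled out beyond these, such as Mir6236, were chosen after their values were seen. The members and lists were chosen with earlier results of these data known. Of the other cell markers, means over the 4 groups were at most 0.559% of counts for endothelial, 0.0374% for epithelial, 0.00477% for neural (3 loci at 0 throughout) and 0.284% for fat cell miRNAs.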

Additional observations from a re-analysis of the deposited data

Results flagged for a closer look

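Among 24 groups of values (the 5 loci and Mir218-2 in 4 groups each), 4 held a library farther from its group than Dixon's 95% critical value allows, where chance gives about 1 in 20 groups. Mir218-1 stood at 4.98 CPM in naive EV 4, from 3 counts, against 21.6 to 28.4 CPM in the other naive EVs. Mir1247 stood at 289 CPM in primed EV 1, against 97.3 to 146 CPM in the other primed EVs. Mir7224 stood at 27.9 CPM in naive EV 1, against 6.64 to 11.6 CPM in the other naive EVs. Mir423 stood at 7889 CPM in naive ASC 5, against 4135 to 4416 CPM in the other naive ASC. The gap as a share of the group's range was 0.711, 0.749, 0.769 and 0.925 in the same order.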

How the results depend on the processing

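Loci called in primed against naive EVs numbered 2, and 1 with library totals alone, with TMMwsp factors or with the stricter filter, 0 when thinned, 8 with no filter, 5 with DESeq2, and 1 to 8 with 1 library left out. EV against ASC gave 187 calls, 120 when thinned (196 loci left), and 178 to 192 with 1 library left out. Primed against naive ASC gave 25, with DESeq2 40, thinned 10, and 6 to 33 with 1 library left out (6 without naive ASC 3 or 4, 11 without primed ASC 3, 12 without primed ASC 4, 33 without primed ASC 5). The split of higher and lower calls was 13 and 12, against 18 and 5 with RLE and 17 and 2 with TMMwsp factors. For EV against ASC it was 94 and 93, against 70 and 130 with library totals.

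Signs turned for Mir671 (0.13) in EVs at -0.18 with library totals, -0.03 with TMMwsp and -0.02 with the stricter filter, for Mir423 (0.29) at -0.04 with library totals, and for Mir146 (0.14) at -0.13 with library totals and -0.15 without primed EV 3 (up to 0.66 with another library left out). In naive EVs against naive ASC, Mir218-1 (0.30) turned to -0.15 with library totals and Mir7224 (-1.13) to 0.25 when thinned. The cause was not tested. Mir140 lost its EV call in 4 settings and 6 fits without 1 library, Mir147 when thinned (2.45, edgeR's quasi-likelihood test adjusted p = 0.163), and Mir31 (-0.98) gained one with no filter, with DESeq2, under both replicate blocks and without primed EV 2. Over all settings EV against ASC ran from -2.84 to -2.16 for Mir671, from -2.64 to -1.97 for Mir1247 and from -1.44 to -0.74 for Mir423.

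Pairing by replicate number was not established: the correlation of deviations was 0.13, 0.44, 0.48, 0.52 and 0.05 in EVs and 0.32, 0.28 and 0.05 in ASC, so 1 pair of each stayed under 0.1, and 2 of 5 EV and 2 of 3 ASC pairs correlated best with their own number. A replicate block by source name number gave 3 calls in EVs, 193 in EV against ASC and 31 in ASC, and by title number 7, 193 and 32, with no call of a member changed in EVs. For Mir31 in EVs the edgeR adjusted p was 0.00297 and 0.00305 under these blocks, against 0.109 without. At 4 to 66 EV counts for Mir7224 and 3 to 63 for Mir218-1, depth limits what could be detected.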
